A study of Mus musculus with 4 samples.

Results

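Srebf1, Srebf2, Insig2, Scap, Mylip, Abcg5, Abcg8 and Abca1, genes that sense sterols in the liver cell or move sterols across its membranes, were followed in mouse liver with and without PPARα and with and without its synthetic agonist Wy14643. The members are the probe sets whose annotated gene is one of these names, under the current symbol or an older one. They came to 13 probe sets of 8 genes among 22626 probe sets and 12393 named genes, and Insig1, a 9th gene of the same group, was not analysed here. Liver RNA was pooled within each of 4 groups of male mice aged 12 to 20 weeks, and each pool was hybridized to 1 Affymetrix MOE430A array. Treated means fed Wy14643 and untreated means fed control chow. The groups were wild-type mice (strain 129S1/SvImJ) on normal chow, wild-type mice fed chow with 0.1% (w/w) Wy14643 for 5 days, PPARα-null mice (strain 129S4/SvJae) on normal chow, and PPARα-null mice fed the same dose of Wy14643 for 5 days. The design text gives 5 mice per group, whereas the paper also speaks of pools of 4 or 5. The comparison between the diets within each genotype asks whether the response to the agonist needs PPARα.

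SREBPs are transcription factors made as precursors in the membrane of the endoplasmic reticulum. When sterols are low, the escort protein SCAP carries them to the Golgi apparatus, where proteases release the active part. When sterols are high, INSIG proteins hold SCAP back. SREBP-2, from Srebf2, acts mainly on cholesterol synthesis and LDL uptake, and SREBP-1c, the main Srebf1 product of liver, acts on fatty acid synthesis. Sterol excess is also read by the nuclear receptor LXR, whose known targets include Srebf1, Abca1, Abcg5, Abcg8 and Mylip. ABCA1 loads cholesterol onto apolipoprotein A-I at the cell surface, ABCG5 and ABCG8 pair to secrete sterols into bile, and the ubiquitin ligase encoded by Mylip (also called IDOL) marks the LDL receptor for destruction.

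Promoters are shown for Abca1 and Srebf1, which share an element, and for Abcg5 and Abcg8, which share a promoter but not a pattern across the arrays. The sequences are RefSeq windows of assembly GRCm38.p6 that run from 250 bases before to 50 bases after a start site, printed 5′ to 3′ on the strand of the gene. Capitals mark exact matches, on either strand, to one of the letter strings searched. In the Abca1 window at chr4:53159846-53160145 (minus strand) the capitals are CACGTG, the E-box, and a match to TGACC and AGTAACC with any 3 bases between them, an LXR-type element that was added to the search after the windows had been read.
Abca1: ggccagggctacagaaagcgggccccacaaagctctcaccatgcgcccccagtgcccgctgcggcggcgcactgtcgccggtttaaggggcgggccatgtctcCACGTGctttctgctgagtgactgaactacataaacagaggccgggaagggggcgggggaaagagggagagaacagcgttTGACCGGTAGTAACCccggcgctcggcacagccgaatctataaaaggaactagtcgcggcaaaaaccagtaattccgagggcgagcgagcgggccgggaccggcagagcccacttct
The third Srebf1 start site, at chr11:60210422-60210721 (minus strand), holds the same kind of element and an inverted CCAAT box, the site of NF-Y.
Srebf1: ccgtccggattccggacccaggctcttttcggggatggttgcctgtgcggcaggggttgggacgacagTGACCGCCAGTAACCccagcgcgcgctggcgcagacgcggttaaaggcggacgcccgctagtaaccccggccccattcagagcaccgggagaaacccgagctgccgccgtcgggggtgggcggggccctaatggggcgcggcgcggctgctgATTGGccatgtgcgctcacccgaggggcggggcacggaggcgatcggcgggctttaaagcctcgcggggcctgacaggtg
The window of the first of 2 listed Abcg8 starts, at chr17:84682871-84683170 (plus strand), covers the start sites of both Abcg8 and Abcg5, which lie 110 bases apart and face away from each other. Its capitals are 2 CCAAT boxes.
Abcg8 and Abcg5: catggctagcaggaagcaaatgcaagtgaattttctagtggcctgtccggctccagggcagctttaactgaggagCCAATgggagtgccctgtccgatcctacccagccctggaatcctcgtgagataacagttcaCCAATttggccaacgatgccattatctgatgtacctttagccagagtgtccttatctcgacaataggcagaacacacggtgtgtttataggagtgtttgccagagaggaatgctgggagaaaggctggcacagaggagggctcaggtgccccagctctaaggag
The LXR-type element lay at -67 to -53 from the Abca1 start and at -182 to -168 from this Srebf1 start. Of 32851 promoter windows 6 held it (0.0183%), among them those of Abca1, Srebf1 and the fatty acid synthase gene Fasn. The rest belong to Acsl3 and LOC115486416, the latter with more than 1 window. Because the string was added after the windows had been read, this share is no measure of enrichment among the members. CCAAT occurred in 8 of 15 windows of the listed genes against 37.4% of all windows, and CACGTG in 4 of 15 against 7.15%. Windows that overlap count an element again, which holds for the CACGTG of both Scap windows and for the CCAAT that Abcg5 and Abcg8 share. CACGTG was thus found in 3 genes. CCAAT was found in 7 genes, since Srebf1 holds it in windows 1 and 3, which do not overlap. Abcg5 and Abcg8 both count among these 7. Direct repeats of AGGTCA spaced by 1 base (the PPAR type) and by 4 bases (the LXR type) and the sterol response element TCACNCCAC had 0 exact matches in the 15 windows, against 0.0396%, 0.0152% and 1.24% of all windows. The hexamer AGGTCA occurred in 1 of 15 windows, that of Insig1, where it overlaps CACGTG, against 16.3% of all windows. These are letter matches within a short window and describe no binding.

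**Figure D1:**
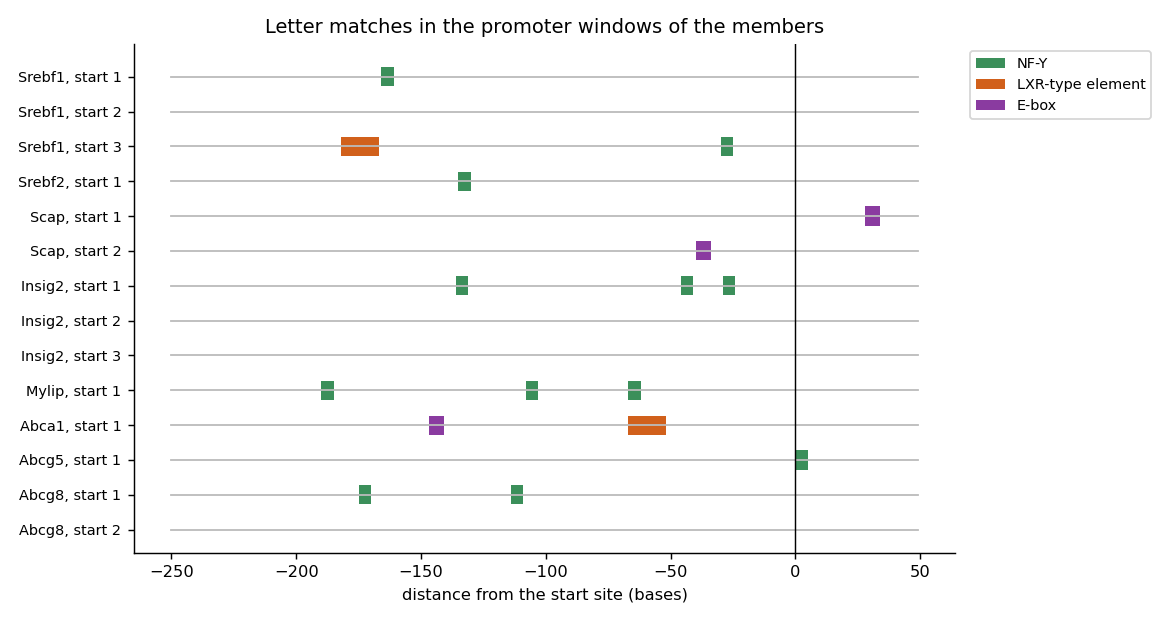
Positions of the letter matches in the 14 promoter windows of the 8 measured genes, with the horizontal axis giving the distance from each start site in bases and each line a window. The LXR-type element is seen in 1 window of Srebf1 and in that of Abca1, and the box at 0 to 4 in Abcg5 is the same CCAAT as that at -114 to -110 in the first Abcg8 window.

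The deposited values are GCRMA intensities, which were compared as log2 ratios of 2 arrays. A group is a single array, so there is no replicate check and no p-value, and precision is limited by how few arrays there are. Higher and lower mean a ratio of 1.5 or more, which is the study's own fold threshold and equals 0.58 on the log2 scale. Background was set at an intensity of 13.4, from 71 probe sets of 51 genes taken as silent in liver (their 90th percentile), and it was exceeded by 52.0% to 52.8% of probe sets per array and by all 13 member probe sets on all 4 arrays. Between the PPARα-null arrays, the log2 ratios of 10740 probe sets above background had an SD of 0.32. The genotypes differ in substrain as well, so PPARα and substrain cannot be told apart in the comparisons between genotypes. The comparisons share arrays, which means that the wild-type Wy14643 array enters both its diet ratio and its genotype ratio. Ppara itself had an intensity of 847 and 1250.1 in wild-type mice on control diet and Wy14643, against 326 and 428 in PPARα-null mice, and whether its probe set lies in the disrupted part is not given in the sources used here. For the treated wild-type array, the description field holds the same words as that of the untreated one, so its group was taken from the title. Cyp4a14, a fatty acid hydroxylase gene known to respond to PPARα agonists, stood at 2717 on the array titled wild-type control and at 9932 on the one titled wild-type Wy14643 (3.66-fold). In PPARα-null mice it stood at 25.0 and 213, which is 8.51-fold higher on Wy14643, and its level was 108-fold higher in the wild type on control diet and 46.6-fold higher on Wy14643.

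Abca1 was higher on the wild-type Wy14643 array than on each of the other arrays by all of its probe sets. Its 3 probe sets were 1.73-, 1.74- and 3.17-fold higher on Wy14643 than on control diet in wild-type mice, whereas in PPARα-null mice their log2 ratios were -0.03, 0.09 and 0.09. Mylip was 1.76-fold lower with the agonist in wild-type mice. The other 9 probe sets stayed within 1.5-fold in wild-type mice, and all 13 did so in PPARα-null mice. In counts, the wild-type response had 3 of 13 probe sets higher and 1 lower, where 14.9% of 12598 probe sets above background were higher and 14.9% lower (29.8% in either direction). In PPARα-null mice 0 of 13 passed the threshold, where 2.18% of 12366 were higher and 4.8% lower (6.97% in either direction). The median log2 ratio of the 13 was 0.31 in wild-type mice, against 0.02 over all probe sets above background, and -0.01 in PPARα-null mice, against -0.02. Abca1 and Insig2 supply 3 probe sets each. By gene, read by the brightest probe set, the median of the 8 was 0.00 in wild-type and 0.01 in PPARα-null mice. The 3 higher probe sets belong to 1 gene, so the counts do not describe 3 separate responses. The probe sets nearest the threshold in wild-type mice were 1450392_at of Abca1, past it at 1.73-fold, and 1419393_at of Abcg5, short of it at 1.47-fold lower.

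**Figure D2:**
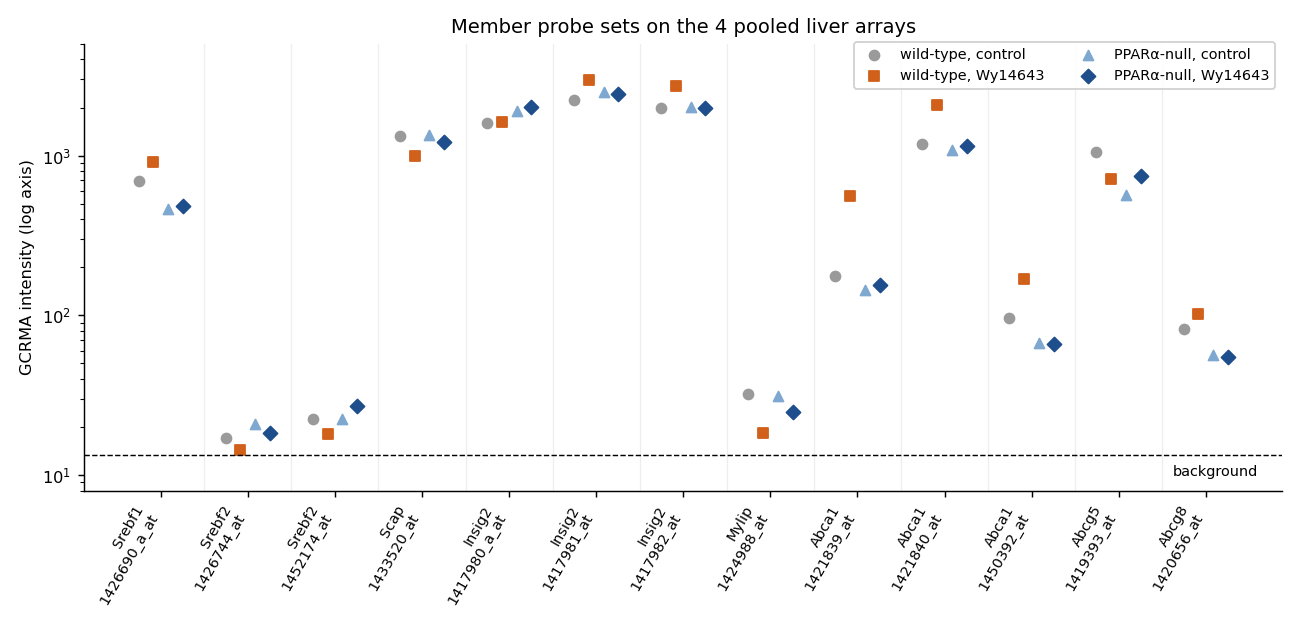
Intensity of each of the 13 member probe sets (horizontal axis) on the 4 arrays, with a log vertical axis in GCRMA intensity units and a dashed line at the background of 13.4. The wild-type Wy14643 array is the highest for all 3 Abca1 probe sets and the lowest for Mylip, and both Srebf2 probe sets lie close to the background.

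**Figure D3:**
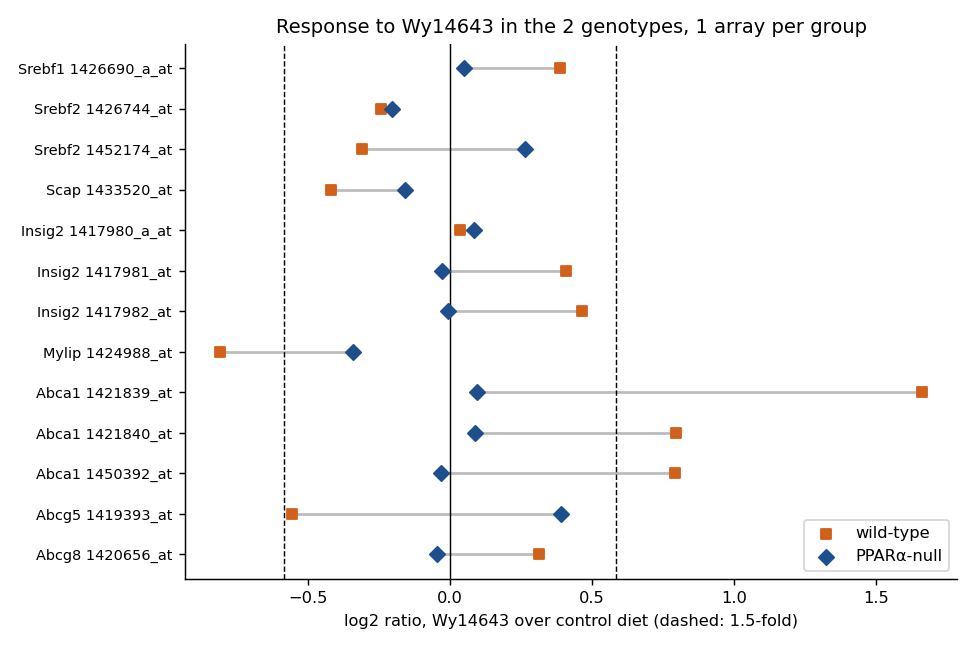
Log2 ratio of Wy14643 over control diet (horizontal axis) for each member probe set in wild-type (squares) and PPARα-null mice (diamonds), with dashed lines at 1.5-fold and 1 array per group. Only Abca1 and Mylip pass a dashed line, in wild-type mice, and Abcg5 lies at -0.56 in wild-type and 0.39 in PPARα-null mice.

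Comparison of the genotypes on Wy14643 placed 5 of 13 probe sets higher and 0 lower in the wild type, where 17.2% of 12707 probe sets were higher and 16.5% lower (33.7% in either direction). They were the 3 Abca1 probe sets and those of Srebf1 and Abcg8. The median log2 ratio of the 13 was 0.28, against 0.00 over all. By gene, read by the brightest probe set, it was 0.10, against -0.02 over all genes. On control diet, 1 of 13 was higher in wild-type mice, that of Abcg5, and 0 were lower, where 2.28% of 12215 probe sets were higher and 2.46% lower (4.73% in either direction). The median of the 13 was 0.04 there, against -0.03 over all, and by gene it was 0.09, against -0.02 over all genes. The probe set nearest below the threshold was 1452174_at of Srebf2 on Wy14643 (1.48-fold lower in wild-type mice) and that of Srebf1 on control diet (1.49-fold higher).

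Of the SREBP genes, Srebf1 was the one with a genotype difference. Its probe set had an intensity of 695 in untreated and 909 in treated wild-type liver, against 466 in untreated and 482 in treated PPARα-null liver. Both wild-type arrays thus lay above both PPARα-null arrays. Wild-type over PPARα-null came to 1.89-fold on Wy14643 and 1.49-fold on control diet, so that most of the difference was present without the agonist, and the response to Wy14643 was 1.31-fold in wild-type and 1.03-fold in PPARα-null mice. The difference on control diet lies at the threshold and passes it under centring on the median (log2 ratio 0.63) and cyclic loess (0.61). A single probe set serves Srebf1, and the products SREBP-1a and SREBP-1c were not separated.

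Srebf2 was measured by 2 dim probe sets. The intensities of 1426744_at were 17.1 in untreated and 14.4 in treated wild-type liver, against 21.0 in untreated and 18.2 in treated PPARα-null liver. Those of 1452174_at were 22.6, 18.2, 22.4 and 26.9 in the same order. Both were lowest in wild-type mice on Wy14643, and both were within 1.5-fold in all 4 comparisons. In PPARα-null mice the pair disagreed in sign, with log2 ratios of -0.21 and 0.26 for Wy14643 over control. Signals so near the background leave little room for a lower value to be seen.

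The escort and retention genes of the SREBPs stayed within 1.5-fold in every comparison. Scap stood at 1333 in untreated and 995 in treated wild-type liver, against 1351 in untreated and 1210.3 in treated PPARα-null liver, lowest on the wild-type Wy14643 array at a log2 ratio of -0.42 to its control. Insig2, whose product retains the SCAP-SREBP complex, had 3 probe sets. For 1417981_at the intensities were 2235 and 2967 in wild-type mice on control diet and Wy14643, and 2492 and 2443 in PPARα-null mice. For 1417982_at they were 1974 and 2721 in wild-type and 2009 and 1999.8 in PPARα-null mice. These probe sets agreed on a small excess on the wild-type Wy14643 array, with log2 ratios to the control of 0.41 and 0.46, against -0.03 and -0.01 in PPARα-null mice. The third, 1417980_a_at, had 1596 and 1634 in wild-type and 1908 and 2024 in PPARα-null mice, with log2 ratios of 0.03 and 0.08. It placed both wild-type arrays below both PPARα-null arrays, so the 3 probe sets disagree on the sign between the genotypes on Wy14643 (-0.31, 0.28 and 0.44). Insig2 has 3 annotated start sites in the RefSeq windows, and which transcripts each probe set reads was not tested.

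Mylip, the ligase gene that limits LDL receptors, was lower with the agonist in wild-type mice. Its intensity was 32.1 in untreated and 18.3 in treated wild-type liver, against 31.3 in untreated and 24.7 in treated PPARα-null liver. The control arrays were alike (log2 ratio 0.04), and the Wy14643 array was the lower of each pair, by 1.76-fold in wild-type and 1.27-fold in PPARα-null mice. The probe set is dim, and with 32 added to every intensity the wild-type log2 ratio shrinks from -0.81 to -0.35, which ends the call.

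The 3 probe sets of the efflux pump gene Abca1 ordered the arrays in much the same way. For 1421840_at, the brightest, the intensity was 1187 in untreated and 2060.4 in treated wild-type liver, against 1081 in untreated and 1148 in treated PPARα-null liver. For 1421839_at it was 177 and 561 in wild-type mice on control diet and Wy14643, against 145 and 155 in PPARα-null mice. For 1450392_at it was 96.9 and 168 in wild-type mice, against 67.6 and 66.1 in PPARα-null mice. Each time the wild-type Wy14643 array was the highest of the 4, the wild-type control came next, and the PPARα-null arrays lay lowest and close together. On Wy14643, wild-type exceeded PPARα-null mice by 1.80-, 2.54- and 3.62-fold, and on control diet the log2 ratios were 0.14, 0.52 and 0.29 in the same order of probe sets (1421840_at, 1450392_at, 1421839_at). The genotype difference of the response was 0.71, 0.82 and 1.57 on the log2 scale, so the probe sets share the direction and differ in size by more than the SD of the PPARα-null pair. By its brightest probe set, the Abca1 log2 ratios in wild-type mice stayed between 0.78 and 0.81 under the scalings and added intensity tried.

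Abca1 is also known from macrophages, and markers of Kupffer cells, the macrophages of liver, differed between the diets. Of 11 listed markers 10 were on the array, 8 of them were above background, and Marco and Cd68 were below it on all 4 arrays. In wild-type mice 7 of the 8 were at least 1.5-fold lower on Wy14643 (median log2 ratio -1.67), and in PPARα-null mice all 8 were (median -1.01). Over all genes above background, the agonist response was lower in 16.2% and higher in 15.2% for the wild type. For PPARα-null mice the shares were 4.51% and 2.33%. The summed intensity of the 10 was 1096 and 433 in wild-type mice on control diet and Wy14643, and 1307 and 667 in PPARα-null mice. The wild-type Wy14643 array had the lowest sum of these markers and the highest Abca1 values, and any link between them was not tested. Fewer cells of a type and less RNA per cell cannot be told apart in bulk liver. The hepatocyte markers placed the tissue, with 7 of 7 measured markers above background on each array and a sum between 57141 and 63491. Of these 7, Tat and Cps1 were 2.93-fold and 2.12-fold lower on Wy14643 in wild-type mice, and 0 passed in PPARα-null mice. Of 9 stellate cell markers, 3 of the 6 above background in wild-type mice were lower on Wy14643 (sums 1561 and 836), whereas 3 of 7 were higher in PPARα-null mice (sums 1706 and 2249). Of 9 sinusoidal endothelial markers 1 of 8 was lower in wild-type (sums 681 and 476) and 3 of 8 in PPARα-null mice (sums 697 and 427), where Kdr, below background on the Wy14643 array, was at least 1.26-fold lower. Of 3 neutrophil markers above background, 2 were at least 1.5-fold higher on Wy14643 in PPARα-null mice, and Ngp, below background on the control array, was at least 1.33-fold higher, with a sum over 4 markers of 50.6 on control diet and 238 on Wy14643, and in wild-type mice the sums were 44.6 and 43.0. Markers of cholangiocytes, lymphocytes and red blood cells had 1 member each above background, and 0 of 3 adipocyte markers were above background. With so few markers, the wild-type counts of 1 of 8 (endothelial) and 2 of 7 (hepatocyte) do not stand out from the share over all genes. The part of these cells in the values of the members was not tested.

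Abcg5 and Abcg8, whose products work only as a pair and whose start sites are neighbours, did not show the same order of arrays. Abcg5 had an intensity of 1046 in untreated and 712 in treated wild-type liver, against 569.9 in untreated and 747 in treated PPARα-null liver. The highest array was the wild-type control and the lowest the PPARα-null control. On control diet the wild type exceeded the PPARα-null level of Abcg5 by 1.84-fold, and on Wy14643 the genotypes were alike (log2 ratio -0.07). Abcg8 had an intensity of 81.8 in untreated and 101 in treated wild-type liver, against 56.8 in untreated and 55.04 in treated PPARα-null liver. Both wild-type arrays exceeded both PPARα-null arrays, by 1.44-fold on control diet and 1.84-fold on Wy14643.

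Within wild-type mice, Wy14643 went with a lower Abcg5 (log2 ratio -0.56) and a higher Abcg8 (0.31), and within PPARα-null mice with a higher Abcg5 (0.39) and an even Abcg8 (-0.05). None of these 4 diet ratios reached 1.5-fold. The difference of the response between the genotypes was -0.95 for Abcg5 and 0.36 for Abcg8. Each gene is read by 1 probe set, so no second reading within these arrays bears on the disagreement. The paper lists both genes among those it selected for upregulation that depends on PPARα, from the arrays of its 4 studies, these included. The wild-type excess of Abcg8 on both diets, and of Abcg5 on control diet, is therefore not independent evidence of direction. The paper excepts both genes, with Lipe, from those upregulated within hours of Wy14643 treatment. On Wy14643, these arrays show no wild-type excess of Abcg5 (log2 ratio -0.07).

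The genes whose values across the 4 arrays lay nearest to those of a member were found by the root mean square difference of the log2 values, each gene centred on its own mean, over 6493 genes above background on all 4 arrays. With 4 arrays, the match is a description. The second nearest gene to Abcg8 was Srebf1, and Abcg8 was the nearest gene to Srebf1, at a difference of 0.048. The ubiquitin-conjugating enzyme gene Ube2h was as near to Abcg8 (0.048), and Dram2 was the next to Srebf1 (0.055). The brightest Abca1 probe set lay nearest to Mrps28, a mitochondrial ribosomal protein gene (0.023), and Brix1, a ribosome biogenesis gene (0.024). Mylip lay nearest to the transcription factor gene Nfib (0.026) and the stress-response gene Sesn1 (0.029), and Abcg5 to Pdcd6ip (0.092) and Tmem41a (0.10). Abcg5 was thus the member with the most distant neighbours among the 5 searched, and Abcg8 was not among its nearest 2.

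Genes of SREBP transport, cleavage and degradation mostly stayed within 1.5-fold. Of 15 genes above background, 3 were higher and 1 lower with the agonist in wild-type mice (background over all genes 15.2% higher, 16.2% lower and 31.4% in either direction), with a median of 0.20 against 0.02 over all genes, and 0 passed in PPARα-null mice (background 6.84% in either direction). With the median of the probe sets of each gene, 1 was higher in wild-type mice and 1 lower in PPARα-null mice. Between the genotypes on Wy14643 the count was likewise 3 higher and 1 lower (background 16.8% and 17.9%, together 34.7%). Nploc4 and Ufd1, partners of the segregase VCP that extracts ubiquitinated proteins from the endoplasmic reticulum membrane, were 2.90-fold and 1.69-fold higher in treated wild-type than treated PPARα-null liver. The coat gene Sar1a, which starts vesicle budding, was 1.77-fold higher, and Sec24d, a cargo-selecting coat subunit, was 2.25-fold lower. Second probe sets of Sar1a and Ufd1 did not share these differences (log2 ratios -0.57 and -0.02). Mbtps1, the first of the SREBP-cleaving proteases, had log2 ratios of 0.00 for Wy14643 over control in wild-type and 0.20 in PPARα-null mice.

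Enzymes of cholesterol synthesis, the classical SREBP-2 targets, had medians below 0 for Wy14643 over control in both genotypes. Of 17 genes above background, 8 were at least 1.5-fold lower and 1 higher in wild-type mice (median -0.58), where 16.2% of all genes were lower and 15.2% higher, and 7 were lower and 0 higher in PPARα-null mice (median -0.53), where 4.51% of all genes were lower and 2.33% higher. With the median of the probe sets of each gene in place of the brightest, 4 were lower in PPARα-null mice. On control diet 0 of 17 differed between the genotypes, where 4.95% of all genes did in either direction. On Wy14643, wild type exceeded PPARα-null in 5 and was lower in 4 (median -0.12), where 16.8% of all genes were higher and 17.9% lower. The sterol methyl oxidase gene Msmo1 stood at 3093 and 883 in wild-type mice on control diet and Wy14643 and at 3777 and 2398 in PPARα-null mice. Squalene epoxidase, Sqle, had 399 and 146 in wild-type and 457 and 316 in PPARα-null mice. Both were thus lowest on the wild-type Wy14643 array, 2.71-fold and 2.17-fold below the PPARα-null array on the same diet. In the opposite direction, Hsd17b7, a sterol ketone reductase gene, was 3.40-fold and the phosphomevalonate kinase gene Pmvk 2.33-fold higher in treated wild-type liver. Hsd17b7 was dim, with 23.6 and 48.7 in wild-type and 21.3 and 14.3 in PPARα-null mice, the last close to the background. Pmvk had 288 and 270.3 in wild-type and 209 and 116 in PPARα-null mice, so its difference came with a lower value in PPARα-null mice on Wy14643.

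Fatty acid synthesis genes that SREBP-1 is known to act on went both ways. The paper counts malic enzyme, Scd1 and the Fads desaturases, all in this list, among known PPARα targets, so the list does not read SREBP-1 alone. What part of the differences below goes through SREBP-1 was not tested. Of 15 above background, 5 were higher and 5 lower with the agonist in wild-type mice (median 0.08), where 15.2% of all genes were higher and 16.2% lower. In PPARα-null mice 0 were higher and 5 lower (median -0.11), where 2.33% and 4.51% of all genes were, or 3 lower with arrays centred on the median. On Wy14643, wild type exceeded PPARα-null in 8 and was lower in 3 (median 0.88), where 16.8% of all genes were higher and 17.9% lower, and on control diet it exceeded PPARα-null in 6 and was lower in 0 (median 0.42, where 2.43% of all genes were higher and 2.52% lower). The malic enzyme gene Me1 (6.70-fold) and the acetyl-CoA carboxylase gene Acacb (4.68-fold) were higher in treated wild-type liver, while Lpin1, whose phosphatidate phosphatase also acts with nuclear receptors, and Thrsp, a lipogenic regulator, were 9.05-fold and 6.10-fold lower. Fasn, whose promoter window shares the LXR-type element with Abca1 and Srebf1, stood at 1215 and 1351 in wild-type mice on control diet and Wy14643 and at 906 and 504 in PPARα-null mice. Its PPARα-null arrays were lower than its wild-type arrays, as for Srebf1, and it was lowest on the PPARα-null Wy14643 array, where Srebf1 was not.

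**Figure D4:**
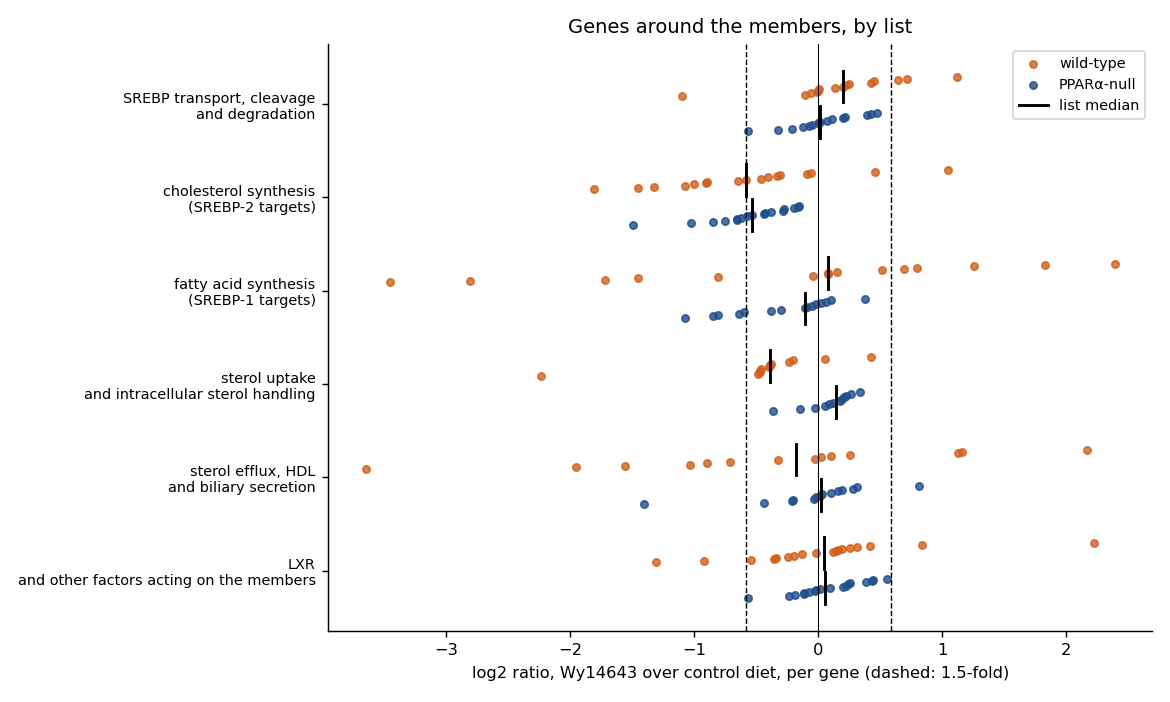
Log2 ratio of Wy14643 over control diet (horizontal axis) for the genes of each list in wild-type (orange) and PPARα-null mice (blue), each point a gene by its brightest probe set, with black bars at list medians and dashed lines at 1.5-fold. The medians of cholesterol synthesis lie at -0.58 and -0.53.

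For genes of sterol uptake and intracellular sterol handling, the median response was below 0 in wild-type mice. Of 12 above background, 0 were higher and 1 lower with the agonist in wild-type mice (median -0.39), where 15.2% of all genes were higher and 16.2% lower, and 0 passed in PPARα-null mice (median 0.15), where 6.84% did. With the median of the probe sets of each gene, 1 was higher and 2 lower in wild-type mice and 1 was lower in PPARα-null mice. Between the genotypes on Wy14643, 3 were lower in wild-type mice and 0 higher (median -0.49), or 1 higher with the median of the probe sets, where 17.9% of all genes were lower and 16.8% higher. They were Stard4, a sterol carrier gene that is a known SREBP-2 target (3.08-fold), the HDL receptor gene Scarb1 (1.65-fold) and Npc1, which exports cholesterol from lysosomes (log2 ratio -0.68). Stard4 had 1025 and 218 in wild-type mice on control diet and Wy14643, against 865 and 671 in PPARα-null mice. The LDL receptor gene itself was not analysed here.

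Of 14 genes of sterol efflux, HDL and biliary secretion above background, which leave out the members themselves, 3 were higher and 6 lower with the agonist in wild-type mice (median -0.18), where 15.2% of all genes were higher and 16.2% lower, against 1 and 1 in PPARα-null mice (median 0.02), where 2.33% and 4.51% were. Between the genotypes on Wy14643, wild type likewise exceeded PPARα-null in 3 and was lower in 6 (median -0.15), where 16.8% of all genes were higher and 17.9% lower. Pltp, the phospholipid transfer protein gene, had 758 and 3403 in wild-type mice on control diet and Wy14643 and 508 and 192 in PPARα-null mice. The endothelial lipase gene Lipg was 4.78-fold higher in treated wild-type than treated PPARα-null liver. Cyp7a1, the rate-limiting enzyme gene of bile acid synthesis, stood at 1367 and 109 in wild-type and at 1545 and 1769 in PPARα-null mice, which makes it 16.2-fold lower in treated wild-type liver. Cyp8b1, which sets the share of cholic acid, was 5.01-fold lower there and was lower on control diet too (log2 ratio -1.87). Abcg1, the close relative of the members that exports cholesterol from macrophages, was dim and even, with 25.2 and 24.7 in wild-type and 29.1 and 25.1 in PPARα-null mice.

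The last list held LXR, its partners, other factors known to act on the members, and Lpcat3, which is a target of LXR instead. Of its 18 genes above background, 2 were higher, Lpcat3 among them, and 2 lower with the agonist in wild-type mice (median 0.05). Of all genes, 31.4% passed there in either direction. In PPARα-null mice 0 passed, where 6.84% of all genes did. With centring on the median or cyclic loess, 1 was higher in PPARα-null mice. Between the genotypes on Wy14643, 1 of 17 was higher in wild-type mice, namely Lpcat3, and 3 were lower (median -0.04). Of all genes, 34.7% passed in either direction. Nr1h3, which encodes LXRα, stood at 109 and 130.4 in wild-type mice on control diet and Wy14643 and at 107 and 127.6 in PPARα-null mice, with log2 ratios of 0.26 and 0.26 for the diet. Rxra, the partner of both LXR and PPARα, was 1.73-fold lower in treated wild-type than treated PPARα-null liver. Nr5a2, which acts on bile acid and Abcg5 and Abcg8 genes, was 1.94-fold lower, and Sp1, a general promoter factor, 4.39-fold lower by its brightest probe set. Second probe sets of Rxra and Sp1 lay near 0 (log2 ratios -0.11 and -0.15). The phospholipid remodelling gene Lpcat3, a known LXR target that is also a PPARα target in mice, was 5.88-fold higher, with 357 and 1665 in wild-type and 243 and 283 in PPARα-null mice.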

How the data were processed

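Each of 4 groups of male mice (2 genotypes, 2 diets) gave 1 pool of liver RNA and 1 MOE430A array. The deposited intensity values (linear scale, 1.55 to 31270.2) were made by the authors with GCRMA, listed as version 2.20 in the submitters' notes, which subtracts a background modelled from probe sequence, equalises the arrays by quantile normalization and combines the probes of a set. Since GCRMA pulls dim probe sets together near its background, ratios of dim members are uncertain. Whether other arrays were normalized alongside is not given in the sources used here. The array medians lay between 14.2 and 14.6.

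From 22690 probe sets the 64 Affymetrix controls were dropped. By the platform annotation, with symbols updated through gene identifiers, 20380 probe sets carry 1 gene, 691 several and 1555 none. Of 58 genes listed as silent in liver, 51 were found and set the background. Genes of 6 pathway lists and 9 cell type lists were read by their brightest probe set and counted where either array of a comparison exceeded the background. Named genes were the members, Ppara, up to 4 per pathway list with the largest ratio between genotypes on Wy14643 past 1.5-fold, and the 2 nearest patterns for each member whose arrays spanned 1.5-fold. Cyp4a14, Mbtps1, Fasn, Abcg1 and Nr1h3 were named after their values were seen. The members and lists were chosen with earlier results of these data known. Alternatives were 32 added to every intensity, a floor at background, centring on the median, cyclic loess (limma 3.58.1 in R 4.3.3), other filters, a 2-fold threshold and other choices of probe set. The calls were tested on simulated data with planted changes of 2-fold or more, so true changes between 1.5-fold and 2-fold were not covered. Python 3.11.15 (pandas 2.3.3, numpy 2.4.6) did the rest, with figures from matplotlib 3.10.9.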

Additional observations from a re-analysis of the deposited data

Results flagged for a closer look

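Abcg5 was the only member probe set whose response to Wy14643 exceeded the SD of the PPARα-null pair (0.32) in both genotypes with opposite signs. Its log2 ratio of Wy14643 over control was -0.56 in wild-type and 0.39 in PPARα-null mice, a difference of -0.95 between the genotypes. The SD of 0.32 is that of a treated over an untreated array and is no measure of replicate noise. For the same ratio in wild-type mice the SD was 0.81, so -0.56 lies within it. With 1 array per group, this difference was not tested.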

How the results depend on the processing

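Most values moved little with the processing. Of the recomputed member ratios, 137 moved by less than the SD of the PPARα-null pair (0.32) and 3 by more, all 144 recomputed list medians and all 32 differences of response moved by less, and no ratio past the threshold changed sign. The 3 were Mylip in wild-type mice (-0.35) and Srebf2 between the genotypes on Wy14643 (-0.23), both with 32 added, and Abca1 between the genotypes on Wy14643 with the median of its probe sets (1.34). Of the recomputed member counts, 57 stayed within 1.5 times and 7 did not. With 32 added, 0 probe sets were lower in treated than untreated wild-type liver. At a 2-fold threshold 1 was higher and 0 lower there, and wild-type exceeded PPARα-null mice in 2 probe sets on Wy14643 and in 0 on control diet. After centring on the median or cyclic loess it did so in 2 on control diet, the second being Srebf1. Of the recomputed list counts, 266 stayed within 1.5 times and 22 did not. The cause of these moves was not tested, other than that a larger threshold leaves fewer calls.

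No paired analysis was possible because each group holds 1 array, which also leaves no array to omit. The planned comparison of member proteins was not run. Signal over background limits Srebf2 and Mylip most.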
